A study of Homo sapiens with 16 samples.

Results

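The cells were Molm14, a human acute myeloid leukaemia line of monocytic type with a KMT2A rearrangement, grown in RPMI with fetal bovine serum. This account covers the 4 libraries labelled iEZH2, from cells given 0.3 uM of the EZH2 inhibitor GSK126 alone, and the 4 control libraries labelled DMSO, the solvent. They are 8 of the 16 libraries of the series. The other 8 libraries are 4 labelled iDOT1L (0.16 uM of the DOT1L inhibitor EPZ5676) and 4 labelled Combo (both inhibitors), which share the estimate of the spread in the fit and give a second look at the same inhibitor. Treatment lasted 7 days, and medium and compound were renewed on day 4, per the labels. The extraction protocol in the labels instead gives RNA taken 3 days after a sort, and the labels do not reconcile the 2 texts. The libraries of each group are numbered 1 to 4. All groups are 1 line, and nothing in the labels says that the 4 libraries of a group came from separate cultures, so the p-values measure the spread between these libraries, which may be technical. Of 22445 gene identifiers in the table, 22331 had enough signal to be tested.

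EZH2 is the enzyme of the Polycomb complex PRC2: with its partners EED and SUZ12 it methylates lysine 27 of histone H3. The trimethylated mark lies over genes kept silent, many of them developmental regulators with CpG-rich promoters, and it is bound by the CBX subunits of the second Polycomb complex, PRC1. GSK126 competes with the methyl donor at the catalytic site, so it blocks the enzyme's activity without removing its mRNA. PRC2 has known roles in leukaemias driven by KMT2A fusions, where HOXA9, MEIS1, MEF2C and FLT3 are among the genes the fusions keep high.

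Values are given as normalised counts, that is, reads per gene scaled to a common library size and not to gene length. Each library held an estimated 20.67 to 27.24 M reads, read from the spacing of low values. In all 8 libraries the 14 markers set for the line were present, with summed counts of 44470 to 49260 in DMSO and 38460 to 43850 in iEZH2. Of the markers tested for other lineages, 5 of 9 for T and NK cells (CD3D and LCK among them), 4 of 9 for B cells (MS4A1 and CD79B), 3 of 8 for erythroid cells and megakaryocytes (ALAS2) and 4 of 11 for stroma and epithelium (EPCAM) averaged below 10. The other members of these lists were expressed: the T and NK list summed to 4393 to 5084 counts in DMSO and 3739 to 4910 in iEZH2, and the erythroid list to 7530 to 8273 and 5919 to 7986. The libraries separated by treatment along the first principal component (36.2% of the variance), apart from DMSO 2 (0.80) and iEZH2 1 (-3.11), which lay between the other DMSO libraries (-23.2 to -15.0) and the other iEZH2 libraries (10.0 to 32.8). Libraries numbered 1 and those numbered 2 deviated together from their group means. Numbers 3 and 4 were not told apart in this way, since over 12270 genes the deviations of iEZH2 4 correlated with those of DMSO 3 (0.295) as much as with those of DMSO 4 (0.279). A second fit treated each number as a block, that is, compared iEZH2 1 with DMSO 1 and so on. Its values are given where it changes the call of a gene described or moves a list's count by more than 1.5 times.

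The target of the inhibitor was not lost. EZH2 (ENSG00000106462; GRCh38 chromosome 7, 148807383 to 148884321) had counts of 1579, 2039, 2038 and 1968 in DMSO 1 to 4 and 1842, 2445, 2386 and 2395 in iEZH2 1 to 4. Library 1 was the lowest in both groups, and each iEZH2 library exceeded the DMSO library of its number. The log2 difference was 0.25 ± 0.12 (standard error), with an adjusted p of 0.341, and 0.0166 with the replicate block. mRNA of a catalytically inhibited enzyme does not check that the treatment worked, and the histone mark itself was not analysed here. Among the 13 PRC2 genes tested, none was called: JARID2, a targeting cofactor, differed by -0.29 (adjusted p = 0.0605), SUZ12 by -0.16 (0.341), EED by 0.09 (0.789) and EZH1, the alternative catalytic subunit, by 0.34 (0.189). With the block, EZH1 and EZH2 passed as higher (0.0447 and 0.0166) and JARID2 as lower (0.0115). The shares over all genes were 1.3% higher and 2.05% lower without the block, and 3.87% and 5.89% with it. KDM6B, a demethylase that removes the mark, fell from 1610, 1206, 1349 and 1529 to 1085, 753.7, 1018 and 865.9 (-0.62 ± 0.15, adjusted p = 0.0214). This call was lost without DMSO 1 or 4 or iEZH2 2 or 4, with an adjusted p of up to 0.0822.

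Over all genes, 748 (3.35%) passed an adjusted p of 0.05 in iEZH2 against DMSO. Of these, 290 (1.3% of genes tested) were higher and 458 (2.05%) lower in iEZH2. With the replicate block the calls numbered 2180 (9.76%), 864 higher (3.87%) and 1316 lower (5.89%), and they included all 748. Fitted to the 8 libraries alone, without the iDOT1L and Combo libraries, the unpaired calls numbered 450. Groups of 4 that did not overlap were seen for 1924 genes (8.62%), higher for 3.67% and lower for 4.95%. The genes called higher and those called lower differed in size of change and in level. The higher genes had a median of 126 counts in DMSO, and 109 of 290 (37.6%) changed at least 2-fold. The lower genes had a median of 1417 counts in DMSO, and 67 of 458 (14.6%) changed at least 2-fold. Median fold changes were 1.75 for the higher and 0.673 for the lower genes. All 458 lower genes were lower in each of the 4 numbered pairs, and 285 of the 290 higher genes were higher in each. Over all 22331 genes tested, 3332 were lower and 3209 higher in each pair. The calls came from these same libraries, so this is no separate support. The count of calls depended on single libraries: it was 409 without DMSO 3, 439 without DMSO 4, 442 without DMSO 1 and 473 without iEZH2 3, and 1046 without iEZH2 1. Of the called genes, 128 higher and 199 lower were called in all 8 fits that left out 1 library.

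**Figure D1:**
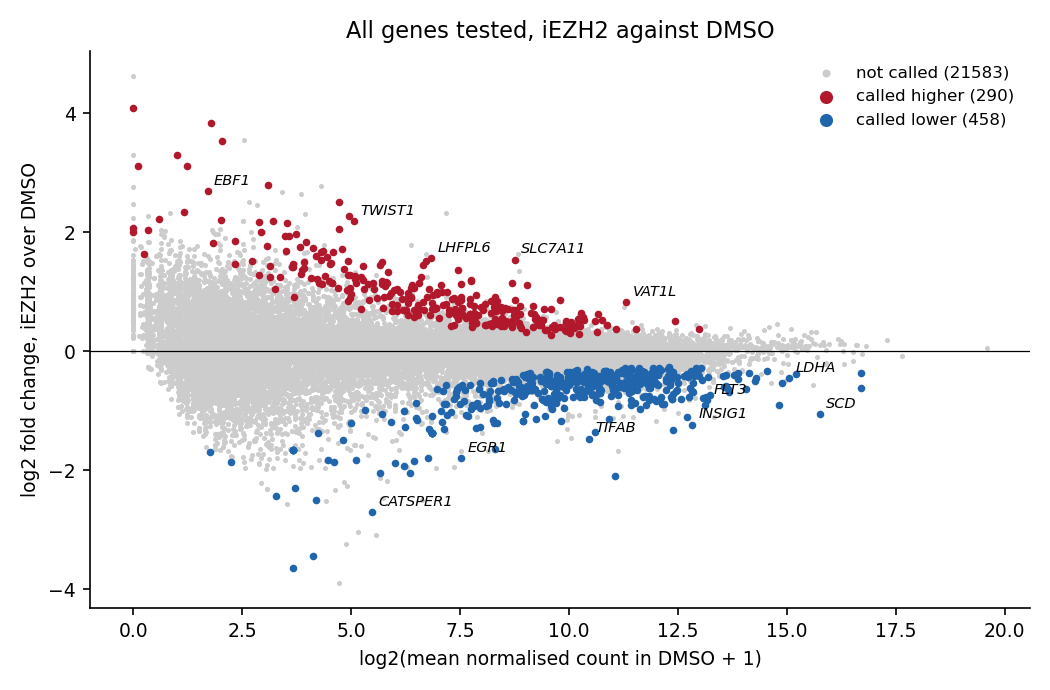
Each point is 1 of 22331 genes, with the log2 of its mean normalised count in DMSO (plus 1) on the x axis and its log2 fold change, iEZH2 over DMSO, on the y axis. The 290 genes called higher (red) have a median of 126 counts in DMSO and the 458 called lower (blue) one of 1417, beside 95.3 over all genes, and a change of at least 2-fold is seen in 37.6% and 14.6% of them.

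The enzymes of cholesterol synthesis formed the group with the most members lower after EZH2 inhibition, as a share of the group, among the lists described here. The 23 enzymes listed run from acetyl-CoA to cholesterol and include GGPS1, which lies on a side branch. Of the 23, 17 fell, none rose and 6 did not pass, against 2.05% of all genes called lower. The median log2 difference of the 23 was -0.63, beside 0.02 over all genes tested. The count was 11 without DMSO 3 or without iEZH2 2, and between 12 and 18 without each other library. In the mevalonate branch 7 of 9 fell, and in the branch from squalene onward 10 of 14. The genes of both branches had their highest iEZH2 counts mostly in iEZH2 1 and their lowest mostly in iEZH2 2, and the number 2 library was often the lowest in DMSO too.

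In the mevalonate branch, HMGCS1, an early enzyme of the branch, went from 7590, 4874, 7489 and 6952 counts in DMSO to 4497, 2266, 2973 and 2950 in iEZH2. The groups did not overlap, and the log2 difference was -1.11 ± 0.23 (adjusted p = 0.0148). The call was lost without DMSO 1, DMSO 3 or iEZH2 2 (adjusted p up to 0.0542), and the adjusted p with the block was 4.93e-07. ACAT2, MVK, MVD, IDI1 and FDPS also fell, with differences of -0.76, -0.68, -0.73, -0.76 and -0.53. Much of the ACAT2 transcript (50.3% of its 31-base words) and part of that of FDPS (23.3%) is shared with other genes, so their counts are uncertain. PMVK, a kinase of the same branch, stood apart with 851.8 to 1086 counts in DMSO and 1106 to 1222 in iEZH2 (0.28 ± 0.10, adjusted p = 0.145). GGPS1, which leads away from sterols to protein prenylation, differed by 0.03 (adjusted p = 0.923; 43.3% shared).

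Beyond squalene, DHCR7, which makes cholesterol from 7-dehydrocholesterol, had the lowest adjusted p of the pathway. Its counts were 2837, 2523, 2712 and 2909 in DMSO and 1857, 1370, 1412 and 1310 in iEZH2. Every iEZH2 library was below every DMSO library, and the difference was -0.90 ± 0.11 (adjusted p = 0.000173). LSS, which folds squalene epoxide into lanosterol, fell by 0.81 on the log2 scale (adjusted p = 0.00469), and FDFT1, which makes squalene, by 0.65 (0.00813). SQLE, the squalene epoxidase, had counts of 2799, 2112, 2910 and 2747 in DMSO and 2213, 1387, 1643 and 1617 in iEZH2 (-0.63 ± 0.16, adjusted p = 0.0341). CYP51A1 fell by 0.82 (adjusted p = 0.00713), though 83.0% of its 31-base words occur in other genes. TM7SF2, EBP, SC5D and HSD17B7 fell by 1.20, 0.53, 0.43 and 0.46, with adjusted p between 0.0216 and 0.0428. The calls of SQLE, TM7SF2, EBP, SC5D and HSD17B7 were each lost in 5 or 6 of the 8 fits without 1 library, among them those without DMSO 3, DMSO 4 and iEZH2 2 (adjusted p of up to 0.128), and 22.7% of the 31-base words of HSD17B7 are shared. MSMO1 missed the threshold without the block (-1.0 ± 0.27, adjusted p = 0.0533) and passed with it (3.41e-06).

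Control and uptake of sterols changed at 4 of 14 genes, all lower. The shares over all genes were 1.3% higher and 2.05% lower without the block, and 3.87% and 5.89% with it. INSIG1, which holds the SREBP precursors in the endoplasmic reticulum and is itself an SREBP target, had counts of 8336, 5874, 7612 and 7147 in DMSO and 4468, 2214, 3037 and 2937 in iEZH2. The highest iEZH2 library was below the lowest DMSO library, and the difference was -1.23 ± 0.22 (adjusted p = 0.00436). The transcription factor genes themselves changed less: SREBF2, the main driver of the sterol genes, by -0.47 ± 0.11 (adjusted p = 0.0209) and SREBF1 by -0.42 ± 0.10 (0.0246). Both of these calls were lost without DMSO 1, DMSO 3 or iEZH2 2, with adjusted p of up to 0.0797 for SREBF2 and 0.106 for SREBF1. The list fell to 2 calls without DMSO 1, DMSO 3 or iEZH2 2. The list of genes driven by the LXR receptors, which respond to surplus sterol, showed 1 call among 12 tested. With the block 1 was higher and 4 were lower, and 9 of the 12 differences were below 0 (median -0.18). The list leaves out SREBF1 and SCD, which are counted in other lists. SMPDL3A was higher (0.73 ± 0.20, adjusted p = 0.0482), and the call was lost in 7 of 8 fits without 1 library (up to 0.158). The cholesterol exporter ABCA1 had 84.48, 106.7, 69.57 and 76.06 counts in DMSO and 91.18, 69.59, 129.4 and 128.8 in iEZH2, which overlap (adjusted p = 0.552), and ABCG1 was near the floor in both groups. MYLIP, an LXR target, was 1 of the 4 that passed as lower only with the block (-0.61, adjusted p = 0.385 without and 0.000347 with it).

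**Figure D2:**
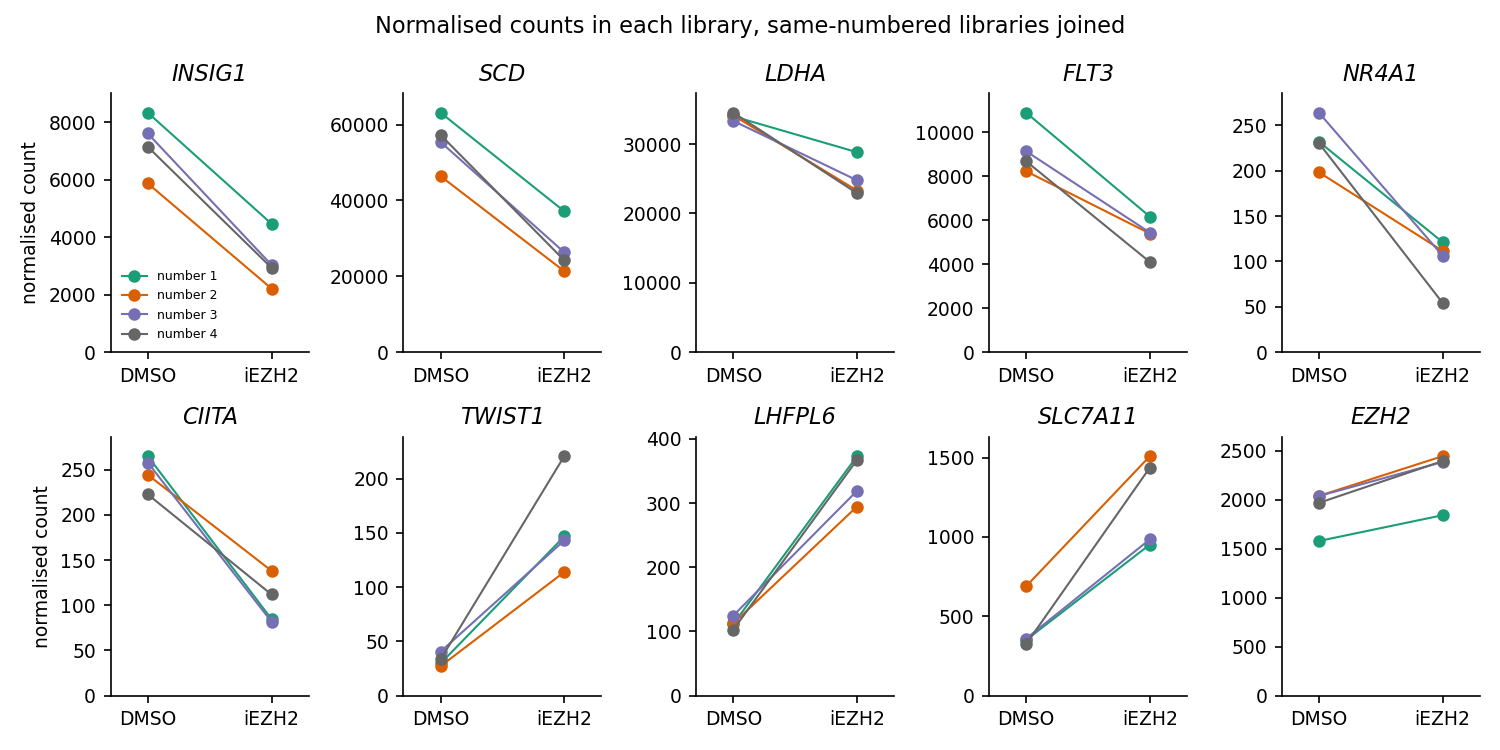
Normalised counts on linear axes from 0 for 10 genes, 1 point a library, with DMSO and iEZH2 libraries of the same number joined by a line and coloured by number. INSIG1, SCD, LDHA, FLT3, NR4A1 and CIITA were lower in iEZH2 in all 4 pairs, TWIST1, LHFPL6 and SLC7A11 higher in all 4, and EZH2 was higher in all 4 by 0.22 to 0.28 on the log2 scale, with groups that overlapped.

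Fatty acid synthesis and desaturation fell at 7 of 23 genes, with none higher and a median of -0.31. Over all genes, 2.05% were called lower and 1.3% higher, and the median was 0.02. SCD, the stearoyl-CoA desaturase, had counts of 63150, 46410, 55420 and 57280 in DMSO and 37140, 21340, 26310 and 24200 in iEZH2. The groups did not overlap, and the log2 difference was -1.05 ± 0.17 (adjusted p = 0.00184). FADS2 and FADS1, the desaturases of polyunsaturated fatty acids, overlap on chromosome 11: the span of FADS1 (61799625 to 61829318) lies within that of FADS2 (61792980 to 61867354). FADS2 went from 5718, 4203, 5975 and 5397 to 3856, 1280, 1981 and 2058 (-1.32 ± 0.28, adjusted p = 0.0156, and up to 0.0564 without DMSO 1, DMSO 3 or iEZH2 3). FADS1 fell by 0.67 (adjusted p = 0.0188, lost without DMSO 3 or iEZH2 2, up to 0.0766). ACLY, which supplies cytosolic acetyl-CoA, fell by 0.42 (adjusted p = 0.00677). SLC25A1, the mitochondrial citrate carrier, fell by 0.43 (0.022, lost in 5 of 8 fits, up to 0.0863), and the acyl-CoA synthetases ACSL1 and ACSL4 by 0.42 (0.0138) and 0.46 (0.0162, lost without DMSO 1, iEZH2 3 or iEZH2 4, up to 0.0656). Fatty acid synthase itself, FASN, had 13420 to 18580 counts in DMSO and 11290 to 14080 in iEZH2, and its difference of -0.33 passed only with the block (adjusted p = 0.173 without, 0.0384 with). The carboxylase ACACA differed by -0.07 (0.894). The count for the list was 4 without DMSO 3 or iEZH2 3 and up to 9 without DMSO 2.

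**Figure D3:**
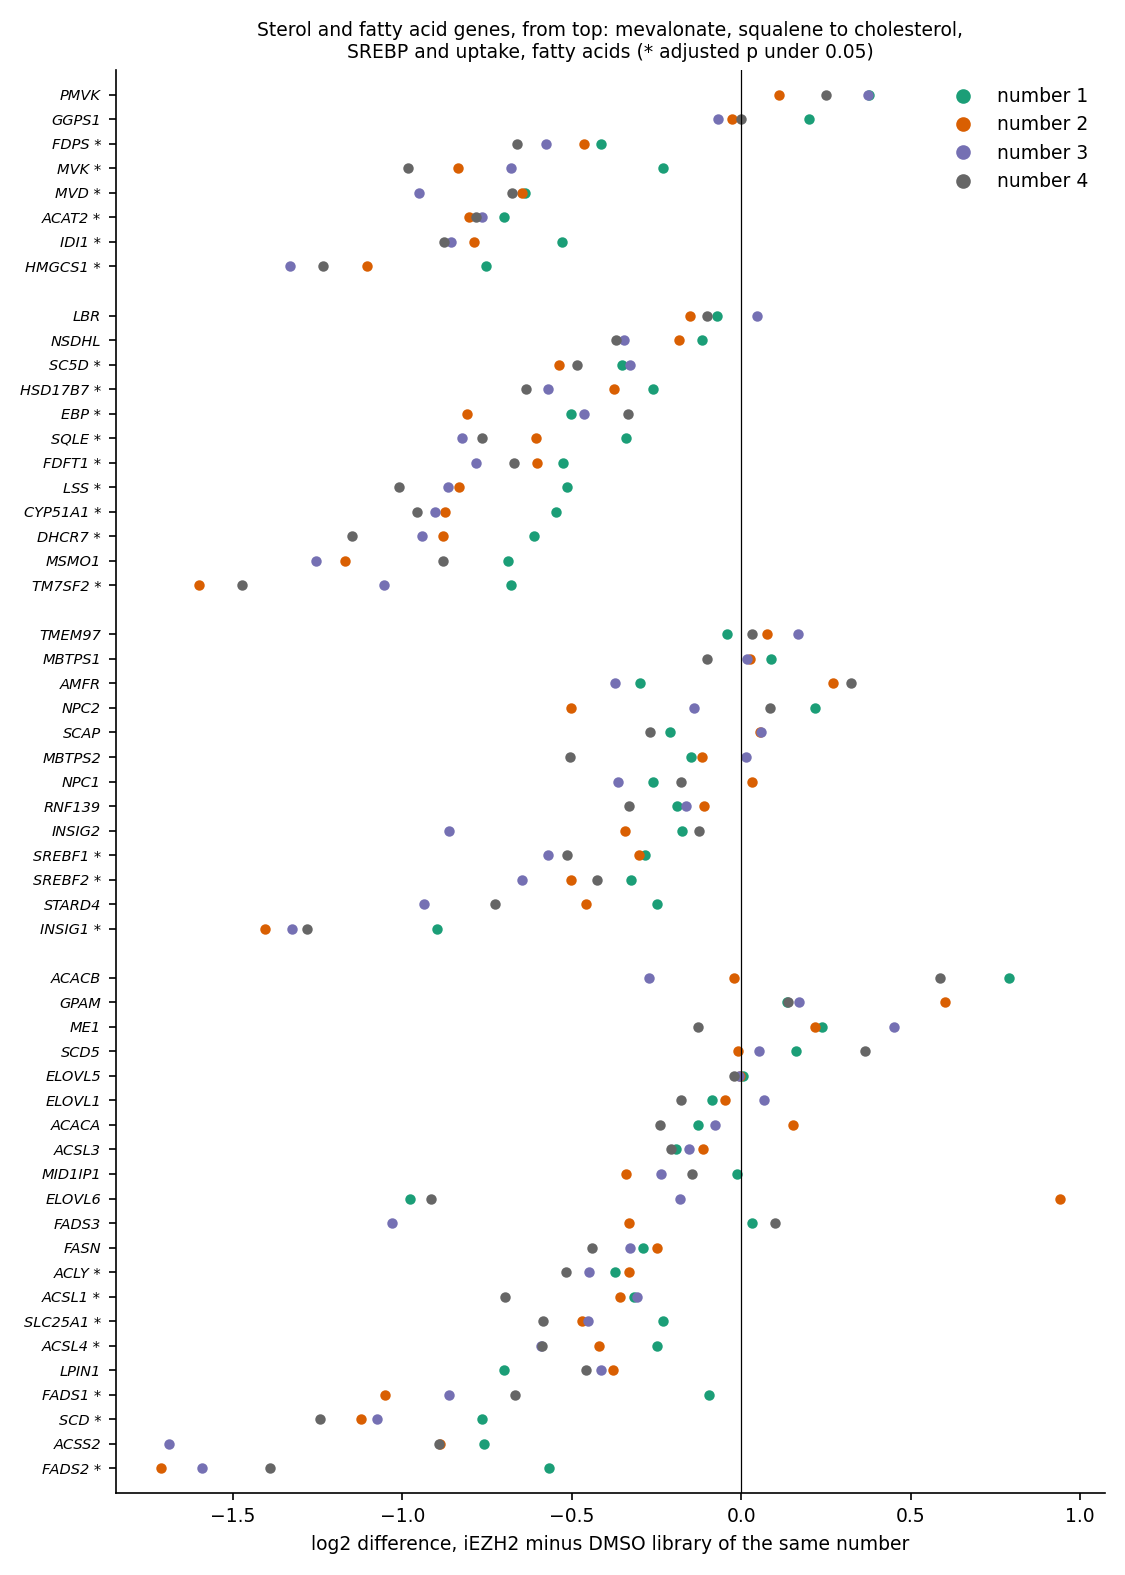
Log2 difference, iEZH2 minus the DMSO library of the same number, on the x axis for the sterol and fatty acid genes reported here with a mean DMSO count of at least 50, 1 point a pair, coloured by number, with an asterisk at genes past an adjusted p of 0.05. Most points of the sterol enzymes lie left of 0, with PMVK and GGPS1 as exceptions, and pair 1 (green) often has the smallest difference.

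The promoters of these genes were read from RefSeq (GRCh38.p14), 250 bases before the first listed start, because SREBP acts at sterol genes together with the factor NF-Y, whose site is CCAAT. Of 5 short motifs searched on both strands, CCAAT was present in 10 of the 12 cholesterol genes called lower that have a promoter in the table (83.3%) and in 12 of 18 of all cholesterol genes with one (66.7%). It was present in 34.4% of the 12821 tested genes with a promoter, in 37.9% of those called lower and in 30.9% of those called higher. The share was 52.4% of 21 fatty acid genes, 22.7% of 22 glycolysis genes, and 58.9% of 56 developmental transcription factors, which were not a group of lower genes. A sterol response element written as TCACNCCAC was in none of the 18 cholesterol promoters, in 1 of the 21 of fatty acid genes (4.76%), in 1.59% of those of genes called lower and in 0.88% of the tested genes. The promoter of SREBF2, which is in neither list, holds it. The other motifs (TGACGTCA, TGANTCA and CACGTG) were in 0, 1 and 2 of the 18, and in 2.54%, 4.64% and 8.33% of the tested genes. A match of 5 letters is common by itself and is no evidence of binding. Stretches of 90 bases from 6 lipid genes that fell are shown on the strand of the gene, 5′ to 3′, because they hold this motif outside any annotated exon. Capitals mark CCAAT or its reverse complement.
MVD (chr16:88663166-88663255, minus strand): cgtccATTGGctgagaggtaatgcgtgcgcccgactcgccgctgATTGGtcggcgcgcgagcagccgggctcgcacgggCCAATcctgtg
LSS (chr21:46228840-46228929, minus strand): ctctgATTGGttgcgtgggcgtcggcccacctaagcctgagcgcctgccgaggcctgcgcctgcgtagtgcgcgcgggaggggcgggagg
HSD17B7 (chr1:162790612-162790701, plus strand): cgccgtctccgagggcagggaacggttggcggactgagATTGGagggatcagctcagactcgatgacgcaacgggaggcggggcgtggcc
SCD (chr10:100346999-100347088, plus strand): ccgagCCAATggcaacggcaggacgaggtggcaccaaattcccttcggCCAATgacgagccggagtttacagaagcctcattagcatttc
ACLY (chr17:41919023-41919112, minus strand): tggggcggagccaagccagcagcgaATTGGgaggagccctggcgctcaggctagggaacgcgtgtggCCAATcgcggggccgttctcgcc
SLC25A1 (chr22:19178837-19178926, minus strand): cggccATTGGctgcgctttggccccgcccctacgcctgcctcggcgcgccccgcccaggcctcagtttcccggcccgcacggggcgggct
The MVD stretch holds 3 copies, those of SCD and ACLY 2 each and the others 1.

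Glycolysis and lactate transport fell at 7 of 24 genes, against 2.05% of all genes called lower. None of the 24 rose, and their median was -0.37. LDHA, which turns pyruvate into lactate, had counts of 33990, 34120, 33330 and 34520 in DMSO and 28820, 23290, 24770 and 22910 in iEZH2 (-0.45 ± 0.10, adjusted p = 0.0131). The DMSO values were close together and all above the iEZH2 values. SLC16A3, the lactate exporter, fell by 0.61 (adjusted p = 0.00243), PFKP, a phosphofructokinase, by 0.42 (0.00639) and PGK1 by 0.44 (0.00775). HK3, a hexokinase of myeloid cells, went from 45.10, 59.73, 80.07 and 68.15 to 26.19, 9.131, 9.667 and 28.70 (-1.87 ± 0.36, adjusted p = 0.00627). HK2 fell by 0.50 (adjusted p = 0.047), a call lost in 7 of 8 fits without 1 library (up to 0.17). PGAM1 fell by 0.33 (0.0158), a call lost without DMSO 3 or iEZH2 4 (up to 0.0551), and 35.7% of its 31-base words are shared.

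This list and the targets of hypoxia-inducible factor (HIF) gained lower calls when libraries were paired. Genes in general did so too: the share called lower went from 2.05% to 5.89%, and that called higher from 1.3% to 3.87%. With the replicate block 18 of the 24 glycolysis genes passed as lower. Of 26 HIF targets outside glycolysis, 2 were called lower without the block and 13 lower and 1 higher with it, and 17 of 26 were lower in all 4 pairs (median -0.54). Without iEZH2 1 the unpaired counts were 12 and 10. ALDOC, an aldolase, shows the pattern: its counts were 2869, 1351, 2444 and 2326 in DMSO and 1362, 366.4, 584.3 and 733.8 in iEZH2. Library 1 was the highest and library 2 the lowest in both groups, so iEZH2 1 overlapped DMSO 2, while each pair differed by -1.08 to -2.06. The adjusted p was 0.0779 without and 9.49e-06 with the block. The glucose transporter SLC2A3 (-1.10, 0.152 without and 1.39e-05 with the block; 30.4% shared) and the mitophagy receptor BNIP3 (-0.97, 0.0902 and 0.000279) had the same order of libraries, as did P4HA1, a collagen prolyl hydroxylase (-0.87, 0.182 and 0.000132). SLC2A1, the other main glucose transporter, also passed only with the block (-0.68, 0.135 and 0.000301). VEGFA, the endothelial growth factor, was called in both fits, with 6045, 4021, 6656 and 5734 counts in DMSO and 4098, 3017, 3345 and 3492 in iEZH2 (-0.67 ± 0.13, adjusted p = 0.00584). EGLN3, a HIF hydroxylase and target, was the member that passed as higher with the block, at 16.39, 8.168, 13.33 and 11.94 in DMSO and 119.4, 17.98, 47.26 and 88.42 in iEZH2 (2.10 ± 0.69, adjusted p = 0.115 without and 0.00196 with the block). No label gives the meaning of these library numbers.

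**Figure D4:**
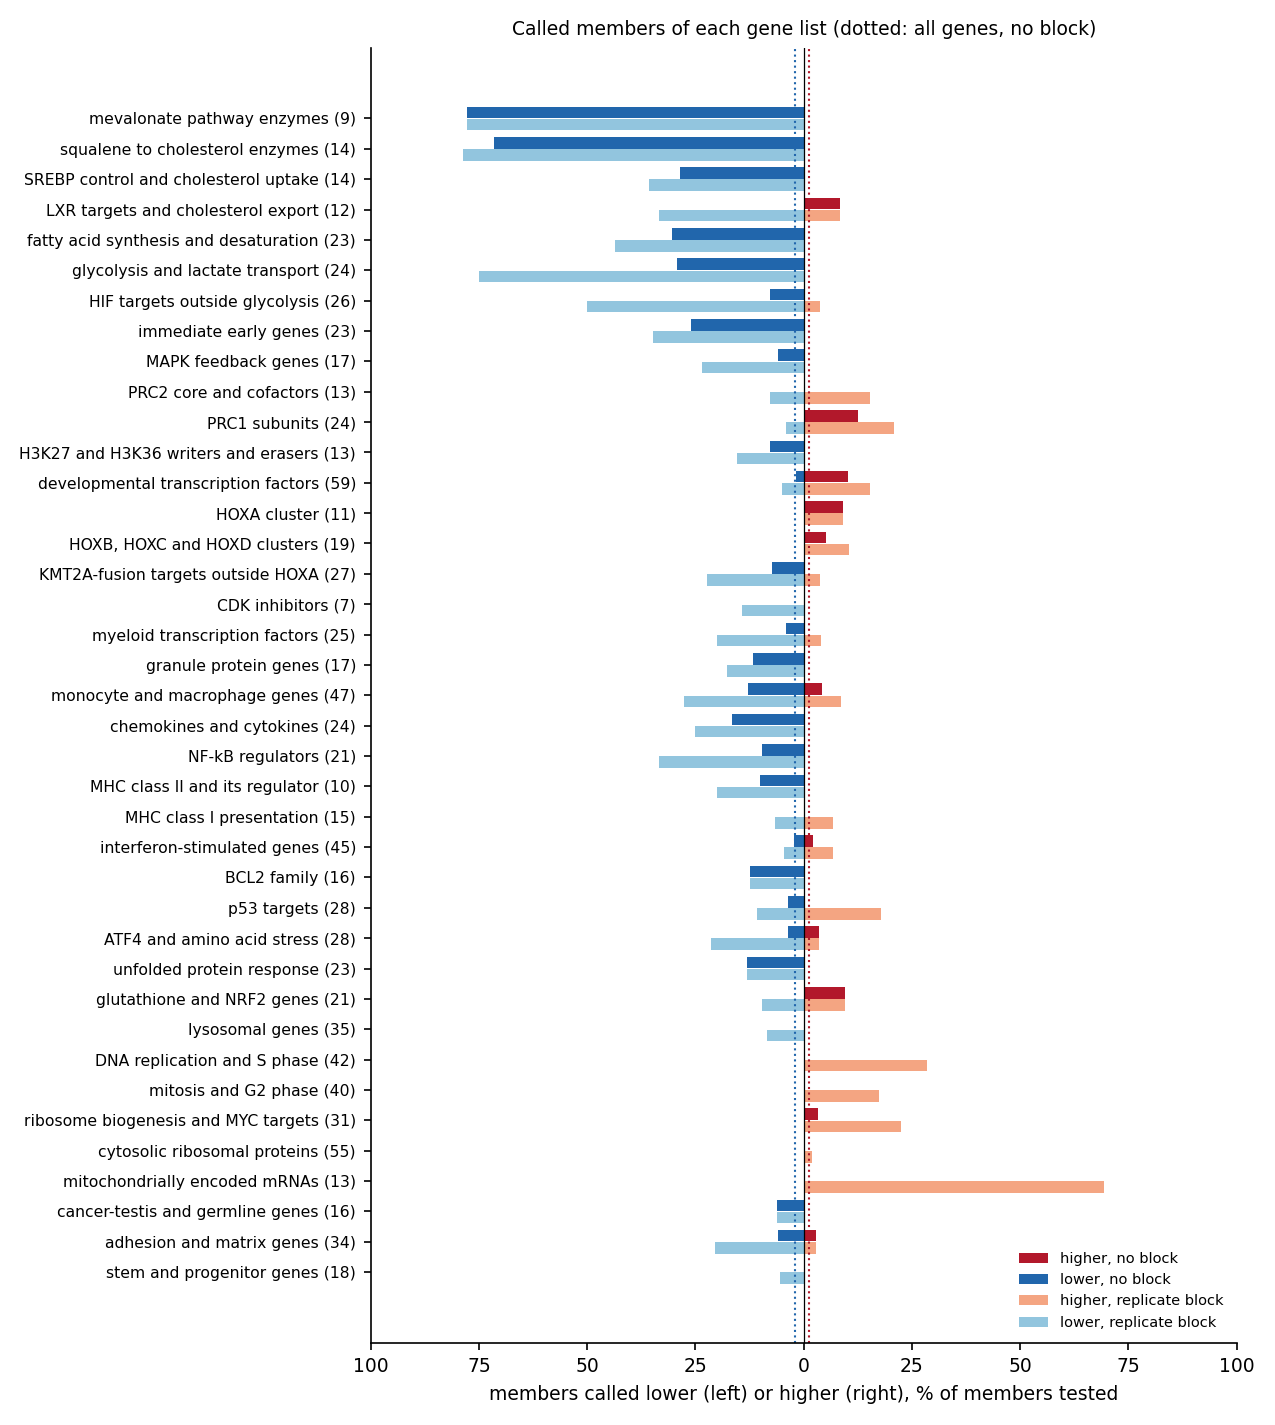
Share of the tested members of each gene list called lower (left) or higher (right), in percent of the number in parentheses, without the block (dark) and with it (light); dotted lines mark the shares over all genes, 2.05% lower and 1.3% higher. The cholesterol lists reach the highest shares lower in both fits, while glycolysis and HIF targets on the lower side and mitochondrially encoded mRNAs on the higher side gain most with the block. With the block the shares over all genes are 5.89% lower and 3.87% higher.

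Immediate early genes, which growth signals switch on within minutes, fell at 6 of 23 members with none higher (median -0.57). Over all genes, 2.05% were called lower and 1.3% higher. The count for the list ranged from 4 to 7 when 1 library was left out. NR4A1, an orphan nuclear receptor, had 232.1, 198.4, 264.1 and 230.5 counts in DMSO and 121.3, 111.6, 106.3 and 54.28 in iEZH2 (-1.28 ± 0.21, adjusted p = 0.00169). EGR1, a zinc finger factor downstream of ERK, had 183.2, 104.6, 296.0 and 152.8 in DMSO and 56.25, 57.87, 80.33 and 21.60 in iEZH2. The groups did not overlap, though the DMSO values were widely spread, and the difference was -1.79 ± 0.41 (adjusted p = 0.0192, lost without DMSO 1, DMSO 3 or iEZH2 4, up to 0.0823). ZFP36, which destabilises cytokine mRNAs, fell by 0.90 (0.00274), and the AP-1 genes JUNB and JUND by 0.67 (0.00104) and 0.79 (0.000856). IER2 fell by 0.45 (0.0421, lost in 6 of 8 fits, up to 0.165; 28.9% shared). FOS missed the threshold (-0.89 ± 0.24, adjusted p = 0.0529) and passed with the block (0.00142), and JUN differed by 0.31 (0.662). Of 17 genes listed for feedback and output of the MAPK pathway, 1 was called. This was ETV4, a transcription factor gene and not a negative regulator, which fell by 0.59 (adjusted p = 0.00211). With the block 4 of the 17 were lower, against 5.89% of all genes. DUSP7, given next, is not among the 17. DUSP6, an ERK phosphatase often used as a readout of the pathway, had overlapping counts (1376 to 2041 in DMSO, 1197 to 2033 in iEZH2; adjusted p = 0.778; 38.5% shared), while DUSP7, a related ERK phosphatase, fell from 3483, 2466, 3364 and 3347 to 1802, 1571, 1700 and 1375 (-0.97 ± 0.12, adjusted p = 0.000173).

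Inflammatory and monocytic genes moved in both directions. Of 24 chemokines and cytokines, 4 fell and none rose (median -0.38), and 2 to 4 were called when 1 library was left out. TNF had 107.6, 89.19, 157.8 and 107.9 counts in DMSO and 38.10, 42.26, 58.86 and 36.58 in iEZH2 (-1.37 ± 0.25, adjusted p = 0.00436). CCL5 fell by 1.17 (0.000705; 22.4% of its 31-base words are shared, so its count is uncertain). IL1RN, the interleukin 1 receptor antagonist, fell by 0.63 (0.0159, lost without DMSO 1, 3 or 4 or iEZH2 2, up to 0.0593) and TGFB1 by 0.65 (0.0359, lost in 6 of 8 fits, up to 0.12). Of 21 regulators and targets of NF-kB, TNIP1 (-0.56, 0.0105) and ICAM1 (-0.76, 0.0042; 23.8% shared) fell, and with the block 7 were lower and none higher. Of 47 monocyte and macrophage genes, 6 fell and 2 rose, against 13 and 4 with the block. The shares over all genes were 2.05% and 1.3%, against 5.89% and 3.87% with the block. The 6 were MS4A7 (-0.81, 0.00267), FCGR1A (-0.51, 0.0138; 80.6% shared), TYROBP, an adaptor of activating receptors (-0.90, 0.0162), LILRB4 (-0.67, 0.0222), the chemokine receptor CX3CR1 (-0.72, 0.0246) and the integrin ITGAX (-1.21, 0.0274). Of these, MS4A7 kept its call without DMSO 3 and without DMSO 4, and the other 5 lost theirs in both fits; over all fits without 1 library their adjusted p reached 0.105. The 2 that rose were TLR4, the receptor for lipopolysaccharide, at 60.13, 54.93, 37.82 and 47.02 in DMSO and 125.0, 82.38, 127.8 and 265.3 in iEZH2 (1.46 ± 0.25, adjusted p = 0.00246), and MNDA, a nuclear antigen of myeloid cells (0.99, 0.0128, and 0.0543 without DMSO 1). The integrin ITGAM (CD11b), a marker of myeloid maturation, had 1208, 677.9, 1098 and 979.0 in DMSO and 834.7, 229.9, 453.7 and 407.2 in iEZH2. It was lower in each pair, with an adjusted p of 0.0792, and 8.11e-05 with the block. CD14 was near the floor in both groups.

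CIITA, the master regulator of MHC class II genes (GRCh38 chromosome 16, 10866222 to 10943021), had 265.1, 244.5, 258.0 and 222.8 counts in DMSO and 84.79, 138.2, 81.89 and 112.0 in iEZH2. The highest iEZH2 library was well below the lowest DMSO library (-1.27 ± 0.17, adjusted p = 0.000492), with 26.2% of its 31-base words shared with other genes. It was the 1 member called among 10 class II genes tested, against 2 lower with the block. CD74, the invariant chain that CIITA also controls, passed as lower only with the block (-0.41, 0.0907 without and 0.00319 with it), and the list's median was 0.24. None of 15 class I genes passed, against 1 higher and 1 lower with the block. Over all genes, 1.3% were higher and 2.05% lower without the block, and 3.87% and 5.89% with it. Of 45 interferon-stimulated genes HERC5 rose (0.68, 0.00329) and XAF1 fell (-0.33, 0.0433, lost in 6 of 8 fits, up to 0.166; 36.6% shared), and with the block 3 were higher and 2 lower.

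Among genes bound by KMT2A fusions outside the HOXA cluster, 2 of 27 fell and none rose, with 6 lower and 1 higher under the block. Under the block 5.89% of all genes were lower and 3.87% higher, against 2.05% and 1.3% without it. FLT3, a receptor tyrosine kinase of progenitors (GRCh38 chromosome 13, 28003274 to 28100592), had counts of 10900, 8234, 9145 and 8689 in DMSO and 6169, 5399, 5441 and 4104 in iEZH2. The groups did not overlap, and the difference was -0.82 ± 0.14 (adjusted p = 0.00232). LMO2, a haematopoietic bridging factor, fell by 0.58 (0.00592). MEF2C had 6827, 6082, 6440 and 6378 in DMSO and 6176, 4799, 4288 and 3049 in iEZH2 (-0.53 ± 0.17, adjusted p = 0.11, and 0.0154 with the block). MEIS1 differed by -0.12 (0.743), HOXA9 by 0.07 (0.764) and MYC by 0.10 (0.727), each with overlapping groups. In the HOXA cluster 1 of 11 genes was called: HOXA7 rose by 0.45 (0.0243, lost in 5 of 8 fits, up to 0.0981; 62.2% shared). In the other HOX clusters 1 of 19 tested (of 28 listed) was called, and 2 with the block, both higher: HOXB9 rose from 34.70, 38.54, 41.34 and 35.96 to 119.1, 75.66, 85.42 and 77.92 (1.21 ± 0.28, adjusted p = 0.018, and 0.0564 at most, without DMSO 1 or DMSO 4). Of 25 myeloid transcription factors IRF8 fell by 0.40 (0.0114), and with the block 5 were lower and 1 higher. CDKN2A, a classical PRC2 target, was at 0 to 2.02 counts in DMSO and 0 to 1.71 in iEZH2, and none of 7 cyclin-dependent kinase inhibitor genes passed. CDKN1A differed by -0.21 (0.221, and 0.0375 with the block), and CDKN1C ranged from 11.53 to 51.12 in DMSO and 11.82 to 176.3 in iEZH2 (0.705).

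The genes that rose included regulators of development, the kind of gene PRC2 is known to hold silent. Of 59 developmental transcription factors tested, 6 rose and 1 fell, against 1.3% and 2.05% of all genes, and the median was 0.17. The list held 86, and the others were not tested. The filter counted all 16 libraries, so a gene silent in DMSO was tested only if other libraries held it. This tilts the share and the median toward rises. With the block 9 were higher and 3 lower, against 3.87% and 5.89% of all genes. The count of those higher ranged from 5 to 8 when 1 library was left out. TWIST1, a mesodermal factor of epithelial-mesenchymal transition (ENSG00000122691; GRCh38 chromosome 7, 19020991 to 19117672), had 29.69, 27.17, 40.61 and 33.44 counts in DMSO and 146.8, 114.0, 143.1 and 220.8 in iEZH2. Every iEZH2 library was far above the highest DMSO library, and the difference was 2.19 ± 0.21 (adjusted p = 4.59e-05). PAX6, a factor of eye and brain development, rose from 72.27, 130.5, 95.33 and 88.83 to 206.2, 226.5, 229.4 and 238.9 (1.24 ± 0.17, adjusted p = 0.00038; 24.8% shared). POU4F1, a factor of sensory neurons, rose by 0.80 (0.000342; 27.2% shared) and POU3F2, of the developing brain, by 0.78 (0.0039). EBF1, which specifies B cells, went from 0, 3.488, 1.738 and 3.888 to 37.70, 7.800, 8.963 and 30.03 (2.69 ± 0.55, adjusted p = 0.00851), so its fold change rests on very few reads in DMSO. The summed level of 9 B cell markers, EBF1 among them, was 1134 to 1535 in DMSO and 983 to 1445 in iEZH2. DLX2 fell by 0.63 (adjusted p = 0.0314), a call lost in 7 of 8 fits without 1 library (up to 0.115). DMSO counts of PAX6, POU4F1 and POU3F2 were well above 0. Of the 24 PRC1 genes 3 rose and none fell: CBX2, whose chromodomain reads the PRC2 mark, from 419.4, 423.5, 410.2 and 416.7 to 653.8, 701.3, 592.8 and 772.6 (0.70 ± 0.10, adjusted p = 0.0008), PCGF5 by 0.68 (0.00713) and PHC1 by 1.12 (0.00436; 60.8% shared). With the block 5 of the 24 were higher and 1 lower.

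The lowest adjusted p of all genes named was that of LHFPL6, a tetraspan membrane protein gene (GRCh38 chromosome 13, 39209116 to 39603528). It had 111.7, 112.6, 124.8 and 102.9 counts in DMSO and 373.0, 294.6, 319.1 and 367.3 in iEZH2 (1.57 ± 0.14, adjusted p = 1.74e-05). CD59, which protects cells from complement, rose from 111.5, 78.87, 103.4 and 106.4 to 280.5, 207.7, 269.0 and 360.6 (1.46 ± 0.17, 0.000161). FZD1, a WNT receptor, rose by 0.89 (0.000253), KIF21A, a kinesin, by 1.73 (0.000253), TRAF5, a signalling adaptor of the TNF receptor family, by 1.84 (0.0003) and VAT1L by 0.82 (0.000101). The calls for these 6 genes held in all 8 fits without 1 library. All of the 15 largest rises started from a mean below 50 counts in DMSO, the highest being that of TWIST1 (32.7). ZNF704 rose by 2.52, B4GALT6, which makes lactosylceramide, by 2.05, SLAIN1, a microtubule plus-end protein, by 2.18, EPB41L5 by 2.15, RALGPS2 by 1.97, C1orf21 by 1.76 and CADPS2, of vesicle release, by 1.78, each called in all 8 such fits. Their DMSO means ran from 6.40 (SLAIN1) to 25.6 counts (B4GALT6). TCEAL9 rose by 2.21 (0.0183, lost without DMSO 4, iEZH2 3 or iEZH2 4, up to 0.0717) and RNF144B, a ubiquitin ligase, by 1.94 (0.0138, and 0.0589 without DMSO 1). SMN2 (3.54), ECI2 (2.80) and ARHGAP5 (2.27) complete the 15 with TWIST1, EBF1 and TRAF5, but share 93.3%, 27.4% and 46.3% of their 31-base words with other genes. SMN2 was listed at 0 in DMSO 1 to 3 and 12.56 in DMSO 4, and its reads cannot be told from those of its near-identical copy SMN1.

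Among the largest falls, CATSPER1, a sperm ion channel gene, went from 60.31, 21.56, 65.51 and 26.99 to 10.38, 4.084, 4.581 and 3.439 (-2.70 ± 0.47, adjusted p = 0.00274). KIF17, a kinesin, went from 305.7, 283.0, 309.7 and 362.9 to 131.1, 51.67, 124.4 and 119.9 (-1.64 ± 0.26, 0.00135). TIFAB, an inhibitor of TRAF6 signalling in myeloid cells, fell by 1.47 (0.000132; 52.6% shared), RASD1 by 1.31 (0.00713) and RAB33A by 1.93 (0.0121). These 5 calls held in all 8 fits without 1 library. C6orf223 had 2544, 1300, 2464 and 2277 in DMSO and 1089, 211.7, 534.0 and 458.4 in iEZH2 (-2.09 ± 0.49, adjusted p = 0.0323, and 1.20e-06 with the block). Its call was lost in 6 of 8 fits (up to 0.0967). CRLF2, the receptor for TSLP, fell by 1.82 (0.0234), FKBP6 by 1.85 (0.0218), MYL9 by 1.48 (0.0341) and ZC2HC1C by 1.82 (0.0408), each from under 50 counts in DMSO and each lost in 3 to 7 of 8 fits (up to 0.135). HECW2 had 18.38, 57.22, 13.28 and 110.2 in DMSO and 6.03 to 10.33 in iEZH2, and passed narrowly (-2.05 ± 0.56, adjusted p = 0.05 after rounding), but not without DMSO 2, DMSO 4 or any 1 iEZH2 library (up to 0.169). The rest of the 15 largest falls (TNF, FADS2, HK3 and EGR1) are described above. By adjusted p, the leading falls were of well expressed genes: GNA15, a G protein subunit of blood cells, from 8563, 8742, 9317 and 9514 to 5901, 4586, 5397 and 5392 (-0.77 ± 0.09, 0.000133), SERINC2 (-0.73, 0.000173), LAT2, a signalling adaptor (-0.54, 0.0003), CHST13 (-0.58, 0.000323) and TPM4, a tropomyosin (-0.60, 0.000161; 25.5% shared).

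Redox, stress and survival genes changed at a few members. For comparison, 1.3% of all genes were higher and 2.05% lower without the block, and 3.87% and 5.89% with it. SLC7A11, the cystine importer that feeds glutathione synthesis, had 350.9, 689.1, 359.2 and 325.0 counts in DMSO and 952.1, 1509, 985.0 and 1437 in iEZH2. DMSO 2 stood above the other controls but below every iEZH2 library (1.54 ± 0.23, adjusted p = 0.00147). GCLC, the rate-limiting enzyme of glutathione synthesis, rose by 0.76 (0.0138, lost without DMSO 1 or DMSO 3, up to 0.0615). They were the 2 higher among 21 glutathione and NRF2 genes, of which 2 more were lower with the block, and NQO1, a classical NRF2 target, differed by 0.25 (0.323). Of 28 ATF4 and amino acid stress genes, SLC7A11 rose and TRIB3 fell (-0.53, 0.00705), and with the block 1 was higher and 6 lower. Of 23 genes of the unfolded protein response 3 fell, and the same 3 calls stood in each of the 8 fits without 1 library: XBP1, its transcription factor, from 8568, 8945, 9195 and 8887 to 4775, 6164, 5602 and 3187 (-0.89 ± 0.14, 0.00118), EDEM1 (-0.88, 0.000908) and HERPUD1 (-0.41, 0.00887). Of 16 BCL2 family genes, the survival genes BCL2A1 (-1.30, 0.00926) and MCL1 (-0.33, 0.0198, lost in 5 of 8 fits, up to 0.0721) fell, and BCL2 differed by -0.07 (0.855). Among 28 p53 targets 21 differences were above 0 (median 0.10), and with the block 5 were called higher and 3 lower. Without it TNFRSF10B alone was called, as lower (-0.39, 0.0374, lost in 5 of 8 fits, up to 0.131). Adhesion genes that fell were PECAM1 (-0.86, 0.00358) and the leukocyte integrin ITGB2 (-0.67, 0.00933), 2 of 34, and 1 rose, the matrix gene LUM, from 0 to 3.13 counts in DMSO to 4.66 to 18.0 in iEZH2, beside summed stromal and epithelial markers of 1270 to 1609 and 1360 to 1887. With the block 7 adhesion genes were lower and 1 higher. The part of other cell types in these rises was not tested. The granule genes BPI (-0.92, 0.0138) and RNASE2 (-0.37, 0.0343, lost in 5 of 8 fits, up to 0.136) fell, 2 of 17, against 3 with the block. PRAME, of the cancer-testis genes, fell by 1.38 (0.0226, lost in 4 of 8 fits, up to 0.0853), and EPOR, the erythropoietin receptor, by 0.51 (0.00598).

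Growth genes passed mostly when libraries were paired. Calls over all genes rose with the block too, from 1.3% to 3.87% higher and from 2.05% to 5.89% lower. Of 42 DNA replication and S phase genes, none was called without the block and 12 were higher with it, and 40 of 42 differences were above 0 (median 0.20). Of 40 mitosis genes, 7 were higher with the block and none without, and of 31 ribosome biogenesis and MYC target genes 7 with it and 1, RRS1 (0.53, 0.0483, lost in 6 of 8 fits, up to 0.154), without. Unpaired fits without 1 library called at most 4, 1 and 3 members of these 3 lists, all higher. All 13 mitochondrially encoded mRNAs were above 0 in every pair (median 0.33), 9 were called higher with the block, none without it, and 7 without iEZH2 1. MT-ND5, a subunit of respiratory complex I, had 37360, 46110, 45230 and 43960 counts in DMSO and 41860, 55930, 57270 and 54170 in iEZH2 (0.27 ± 0.11, adjusted p = 0.196 without and 0.00473 with the block). Library 1 was the lowest in both groups. For cytosolic ribosomal protein genes 54 of 55 differences were above 0 with a median of 0.09, and 1 passed with the block. None of 35 lysosomal genes and none of 18 stem and progenitor genes was called without the block, against 3 and 1 lower with it.

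Some changed genes were neighbours. Among 16768 protein-coding genes tested, of which 272 were called higher and 421 lower, 12 pairs of adjacent genes were both called higher, 26 both lower and 3 opposite. Whether this is more than their numbers alone would give was not tested. HCST and TYROBP, adaptors of activating immune receptors that lie 0.024 kb apart on chromosome 19 (35902480 to 35908295), fell by 0.96 and 0.90. FURIN and FES, 0.237 kb apart on chromosome 15, fell by 0.51 and 0.77, and the metallothionein genes MT2A and MT1E on chromosome 16 by 1.35 (adjusted p = 0.0473) and 0.78 (0.0228). SLAIN1 and POU4F1 on chromosome 13 rose by 2.18 and 0.80, and FERMT1 and BMP2 on chromosome 20 by 1.38 and 0.80, across gaps of 834 and 644 kb without another protein-coding gene tested. Reads of overlapping neighbours such as FADS1 and FADS2 cannot be told apart where their transcripts overlap, and whether the counting used strand is not given in the sources used here. Promoters of the genes called higher held a median of 28 CpG per 300 bases (210 genes), those called lower 26 (314) and all tested genes 24 (12827).

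The Combo and iDOT1L libraries give a second measurement of the same EZH2 inhibitor, with the DOT1L inhibitor present in both arms. They share no library with the first, but both comparisons use the same standard error for each gene. The spread was estimated over all libraries together. Choosing genes by the first calls can favour a small standard error, which recurs in the second comparison. The numbers of chosen genes called again are therefore not independent of the first calls. The signs and sizes of the differences do not use the standard error. In Combo against iDOT1L, 577 genes (2.58%) passed, 247 higher (1.11%) and 330 lower (1.48%), and 2240 (10.0%) with the replicate block (3.78% higher, 6.26% lower). Of the 290 genes higher in iEZH2 against DMSO, 279 (96.2%) were above 0 in Combo against iDOT1L, beside 50.7% of all genes. Of these 290, 113 were called higher there and none lower. Of the 458 lower genes, 444 (96.9%) were below 0, 164 were called lower and 1 higher. Median differences were smaller, at 0.55 and -0.39 against 0.81 and -0.57 in the comparison by which the genes were chosen. TWIST1 differed by 2.11 there, LHFPL6 by 1.14, SLC7A11 by 0.95, INSIG1 by -1.0, SCD by -0.94, FLT3 by -0.81, CIITA by -0.73 and LDHA by -0.42. Of the 23 cholesterol enzymes 9 were called lower in Combo and none higher.

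**Figure D5:**
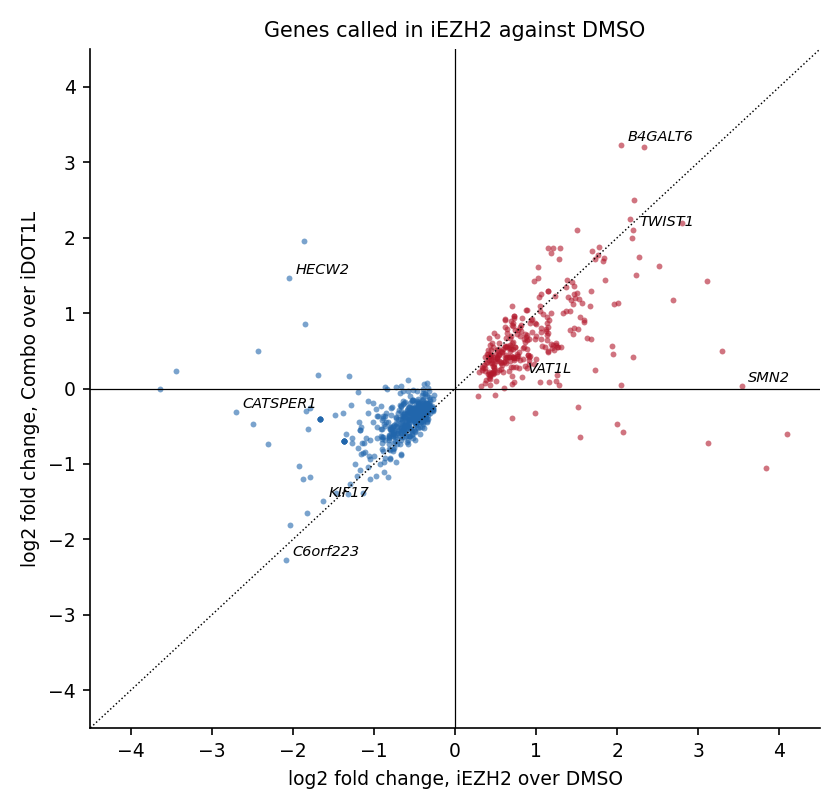
Each point is 1 of the 748 genes called in iEZH2 against DMSO, with that log2 fold change on the x axis and the log2 fold change of Combo over iDOT1L on the y axis; the dotted line marks equal change. Most points lie in the quadrants of equal sign (279 of 290 higher, 444 of 458 lower), and HECW2 is among the exceptions.

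The difference between the 2 effects of the EZH2 inhibitor, tested as an interaction, was not called for any gene by limma, with or without the block, while 848 genes (3.80%) had an unadjusted p below 0.05. Among the genes named, the lowest adjusted p of this difference was that of VAT1L (0.242), which changed by 0.82 alone and 0.16 with the DOT1L inhibitor. CHST13 followed (-0.58 and -0.03, adjusted p = 0.276). NR4A1 changed by -1.28 alone and -0.22 in Combo (a difference of 1.06 ± 0.29, adjusted p = 0.883), and EGR1 by -1.79 and -0.26 (1.53 ± 0.58). The direction itself differed for HECW2 (-2.05 and 1.47, adjusted p = 0.708), FKBP6 (-1.85 and 0.86, 0.715) and RASD1 (-1.31 and 0.16, 0.835). Their rises in Combo against iDOT1L were not called (adjusted p = 0.183, 0.335 and 0.812). Against DMSO, iDOT1L alone differed by -1.65 for NR4A1, -3.16 for EGR1, -1.87 for HECW2, -1.99 for FKBP6 and -1.41 for RASD1. These genes thus had lower mean counts in iDOT1L, the reference of the second comparison, than in DMSO. Whether this bears on the size of the second effect was not tested. For VAT1L and CHST13, iDOT1L differed from DMSO by 0.72 and -0.24. None of these interactions passed the adjustment over all genes, so at this number of libraries the effects were not shown to differ with DOT1L inhibition, nor shown to be equal.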

How the data were processed

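RNA from 16 Molm14 libraries (4 groups of 4) was sequenced as 2x150 bases on an Illumina HiSeq, per the labels. The submitters' processing notes name kallisto, DESeq2 and hg38, with no version. The table the authors deposited holds log2 values in the form of a variance-stabilising transformation, for 22445 Ensembl genes. Its lowest value, 6.28106, stands for a count of 0. The transformation was inverted to normalised counts. Of the low values, 57.0% to 62.2% were within 0.1 of whole reads, so no count test was run.

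Genes above 1 normalised count in at least 4 libraries were kept (22331). limma 3.58.1 in R 4.3.3 (trend and robust settings) was fitted to log2(normalised count + 1) with 4 group means over 16 libraries (12 residual degrees of freedom), and p-values were adjusted by Benjamini-Hochberg. A fold change on this scale understates the change of low genes. Symbols and positions are from GENCODE 29 (20784 identifiers matched).

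The numbers 1 to 4 were taken as a possible pairing, used in the block fit for all 4 groups, because correlations of deviations between same-numbered iEZH2 and DMSO libraries were over 0.1: 0.447, 0.581, 0.198 and 0.279 over 12270 genes with a mean of at least 50. Over 15457 genes with at least 10 they were 0.263, 0.363, 0.0973 and 0.176, so number 3 missed 0.1. The crossed correlations of numbers 3 and 4 were similar: iEZH2 4 with DMSO 3 gave 0.295 and 0.16, and iEZH2 3 with DMSO 4 gave 0.184 and 0.121. The labels give no source for the pairing.

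Genes and lists were chosen with earlier results of these data known, and no list was tested as a set. Named are the 15 largest rises and falls and the 8 lowest adjusted p each way, among called genes whose groups did not overlap and whose higher group averaged at least 20 counts, up to 6 called members of each list, and fixed genes. Other list members (such as PMVK, ALDOC or MSMO1), the further members of short counts and the neighbouring pairs were named after their values were seen. Genes with over 20% of their 31-base words in other genes are given as uncertain. Alternatives were the block, 8 libraries only, the deposited log2 values, pseudocounts of 0.5 and 5, other filters, TMM and quantile scaling, and leaving out libraries. A few members of the lists are counted but not reported here by name. The code was tested on simulated data.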

Additional observations from a re-analysis of the deposited data

Results flagged for a closer look

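A library far from the other 3 of its group was found in 19 of 334 groups of 4 (167 genes, 2 groups each), or 5.69%, and chance gives about 1 in 20. Of these, 8 were in DMSO 2. It was low for ACAT2 (2781 counts, others 3426 to 3532), FDFT1 (4592, others 5962 to 6135), BPI (230.0, others 286.5 to 292.7), CD74 (3113, others 3856 to 3943), CX3CR1 (676.9, others 832.7 to 862.4), DUSP7 (2466, others 3347 to 3483) and PGK1 (18670, others 20510 to 20720), and high for SLC7A11 (689.1, others 325.0 to 359.2). In all 8 it deviated toward the side on which the iEZH2 mean lies.

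DMSO 1 was low for EZH2 (1579, others 1968 to 2039) and HERC5 (258.2, others 333.9 to 336.2) and high for EPB41L5 (18.59, others 7.592 to 8.432). iEZH2 1 was low for EZH2 (1842, others 2386 to 2445) and high for CATSPER1 (10.38, others 3.439 to 4.581) and TNIP1 (2307, others 1628 to 1732). iEZH2 2 was low for ACAT2 (1594, others 2052 to 2110) and KIF17 (51.67, others 119.9 to 131.1). iEZH2 4 was low for FURIN (1767, others 2171 to 2210). At the floor, CDKN2A had 1.712 counts in iEZH2 4 and 0 in the other 3, and SMN2 had 12.56 in DMSO 4 and 0 in the other 3. EZH2 and ACAT2 stood apart in both groups at the same library number.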

How the results depend on the processing

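The number of genes called in iEZH2 against DMSO moved by more than 1.5 times under some choices. Against 748 (290 higher, 458 lower), the replicate block gave 2180 (864 and 1316), the 8 libraries alone 450 (157 and 293), the 8 libraries with the replicate block 2052 (803 and 1249), and an adjusted p under 0.01 gave 290 (115 and 175). Leaving out 1 library gave 409 to 1046 (166 to 354 higher, 243 to 692 lower), and leaving out both libraries of 1 number, an alternative chosen after seeing the data, 216 to 549 (106 to 221 and 110 to 337). Combo against iDOT1L had 577 calls, and 2240 with the replicate block. The deposited log2 scale, pseudocounts of 0.5 and 5, both filters, TMM and quantile scaling gave 719 to 898 calls, and under these the median of all genes lay between 0.0036 and 0.0218. None of the 748 called genes changed sign under any of these choices. Of the 132 called genes among the 167 described, 58 missed an adjusted p of 0.01, 30 lost the call with the 8 libraries alone, 16 with quantile scaling, and 76 without both libraries numbered 3; the cause was not tested. With the block none of the 132 lost its call, and 18 others gained one. Low counts limit the largest rises, many of which start below 50 counts.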
